A study of Rattus norvegicus with 3 samples.

Results

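The genes described here encode the proteins of the mitochondrial ribosome, in motor cortex of 3 rats. They were chosen by name alone, as every entry whose gene name began with Mrpl or Mrps and a digit, in that spelling. Of 30957 entries in the deposited files, 76 were members. They carried 73 gene symbols, because Mrpl36, Mrpl53 and Mrps36 each stood in several entries. The Mrpl names, for large subunit proteins, accounted for 46 entries and 44 symbols. The Mrps names, for small subunit proteins, accounted for 30 entries and 29 symbols. Messenger RNA was sequenced from male Sprague-Dawley rats, an outbred strain, numbered 12, 24-4 and 33. Every rat had cerebral ischemia and reperfusion, in which blood supply to the brain is cut off and restored, and electroacupuncture at the GB20 (Fengchi) point. The labels add a time of 8 weeks and do not say from which event it runs. The 3 rats form 1 group with 1 library each, and sham, untreated or unstimulated animals were not analysed here, so the values describe levels and the spread between treated animals and no effect of ischemia or stimulation.

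Mitochondria have their own ribosome, which translates the few messenger RNAs of the mitochondrial genome, all of them for core subunits of the respiratory chain and the ATP synthase. Its RNAs come from the mitochondrial genome, but all of its proteins are encoded in the nucleus, made in the cytosol and imported. Many of them descend from bacterial ribosomal proteins and others exist only in mitochondria. In the motor cortex, as in other brain regions, neurons draw most of their ATP from the respiratory chain, and inherited defects of single mitochondrial ribosomal proteins in humans cause disease of brain, heart and other organs.

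The authors deposited FPKM, in which the fragments of a gene are divided by its length and by the library's fragments. The FPKM of all genes summed to 476169 in rat 12, 464587 in rat 24-4 and 489810 in rat 33, and the estimated depths were 15330000, 17230000 and 13000000 fragments. Genes of the mitochondrial genome made up 26.6%, 14.4% and 20.9% of these sums, and because FPKM is a share of the library, these differences shift every other gene. The labelled tissue carried its markers: the 6 neuronal markers summed to 2182, 1513 and 1122 FPKM in rats 12, 24-4 and 33. The 6 choroid plexus markers, from tissue that is not cortex, summed to 3324, 129 and 13115 FPKM, and oligodendrocyte markers to 5323, 6965 and 12114 FPKM. Such sums cannot be read as cell numbers, since in bulk samples fewer cells of a type and less RNA per cell cannot be told apart.

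Promoter sequence was available for 58 of the 73 symbols from RefSeq on the build GRCr8, as windows of 250 bases before and 50 after the annotated start. Of 5 motifs searched, the share of promoters differed most from that of tested genes for the 8-letter core of the YY1 motif, AAGATGGC, which 15 of 60 member promoters held on either strand. The matches with their surroundings are shown for the 4 highest large subunit genes and the 4 highest small subunit genes that have one, with the match in capitals, read 5′ to 3′ in the direction of the gene.
Mrpl49: ttggaggagcaAAGATGGCagcaaatgtat
Mrpl48: actcggtaacaAAGATGGCaactaatactg
Mrpl42: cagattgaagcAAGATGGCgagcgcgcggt
Mrpl37: ctgcccgggcaAAGATGGCggcgtccaggt
Mrps18a: ggtgtgttcccAAGATGGCggccctcaggg
Mrps7: tgatagcggccAAGATGGCtgcccccgcac
Mrps6: aagattccatcAAGATGGCagccaagaccc
Mrps30: cgcggaggacaAAGATGGCggctgccaggt
In all 8 the match reads forward, and in 6 of them it begins after the annotated start, at position 17 in Mrpl49, 20 in Mrpl42, 7 in Mrpl37, 1 in Mrps18a, 7 in Mrps7 and 19 in Mrps30. The exceptions are Mrpl48, with its match 177 bases before the start, and Mrps6, with its match 3 bases before it. The Mrps7 window lies at chr10:101342637-101342666 on the plus strand and the Mrpl49 window at chr1:212779293-212779322 on the minus strand of GRCr8. The 8 letters include ATG, the letters of a start codon, and whether matches after the start lie on start codons was not examined.

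The highest gene of each subunit did not hold this core, and the 250 bases before its start are given to show what they hold in its place, with a match to the NRF1 motif in capitals. NRF1 is a transcription factor known for genes of mitochondrial function.
Mrpl17: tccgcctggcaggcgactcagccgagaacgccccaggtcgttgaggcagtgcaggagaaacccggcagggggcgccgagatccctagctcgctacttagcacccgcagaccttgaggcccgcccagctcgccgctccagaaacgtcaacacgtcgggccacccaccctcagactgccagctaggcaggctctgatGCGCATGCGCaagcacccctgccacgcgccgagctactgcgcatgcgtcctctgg
Mrps25: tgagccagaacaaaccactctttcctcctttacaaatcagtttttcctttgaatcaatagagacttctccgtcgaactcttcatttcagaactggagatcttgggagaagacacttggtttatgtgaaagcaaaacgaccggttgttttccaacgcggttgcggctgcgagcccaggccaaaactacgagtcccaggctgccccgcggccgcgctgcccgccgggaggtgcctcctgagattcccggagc
The Mrpl17 stretch, chr1:169575700-169575949 on the minus strand, was 67.6% G or C and held 1 NRF1 match, 55 bases before the start. The Mrps25 stretch, chr4:126237213-126237462 on the minus strand, was 53.6% G or C and held no match to the YY1, ETS or NRF1 motifs.

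Most members were transcribed at similar, moderate levels. A mean FPKM of at least 1 over the 3 rats was reached by 70 of the 76 entries, 41 large and 29 small, or 92.1%, against 44.4% of all entries in the files. Of these 70, 50 had a mean between 10 and 40 FPKM, 12 were below 10 and 8 were at 40 or above. The members together held 0.303%, 0.401% and 0.317% of the FPKM sum of rats 12, 24-4 and 33. Their median was 16.6, 20.4 and 18.7 FPKM in rats 12, 24-4 and 33, against 9.96, 9.81 and 10.8 FPKM over all 13754 tested genes. At the members' median, a gene of 1 kb would rest on 255, 352 and 243 fragments in the 3 rats. The exact 95% Poisson intervals of these counts are 225 to 288, 316 to 391 and 213 to 276, and they cover counting error only.

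**Figure D1:**
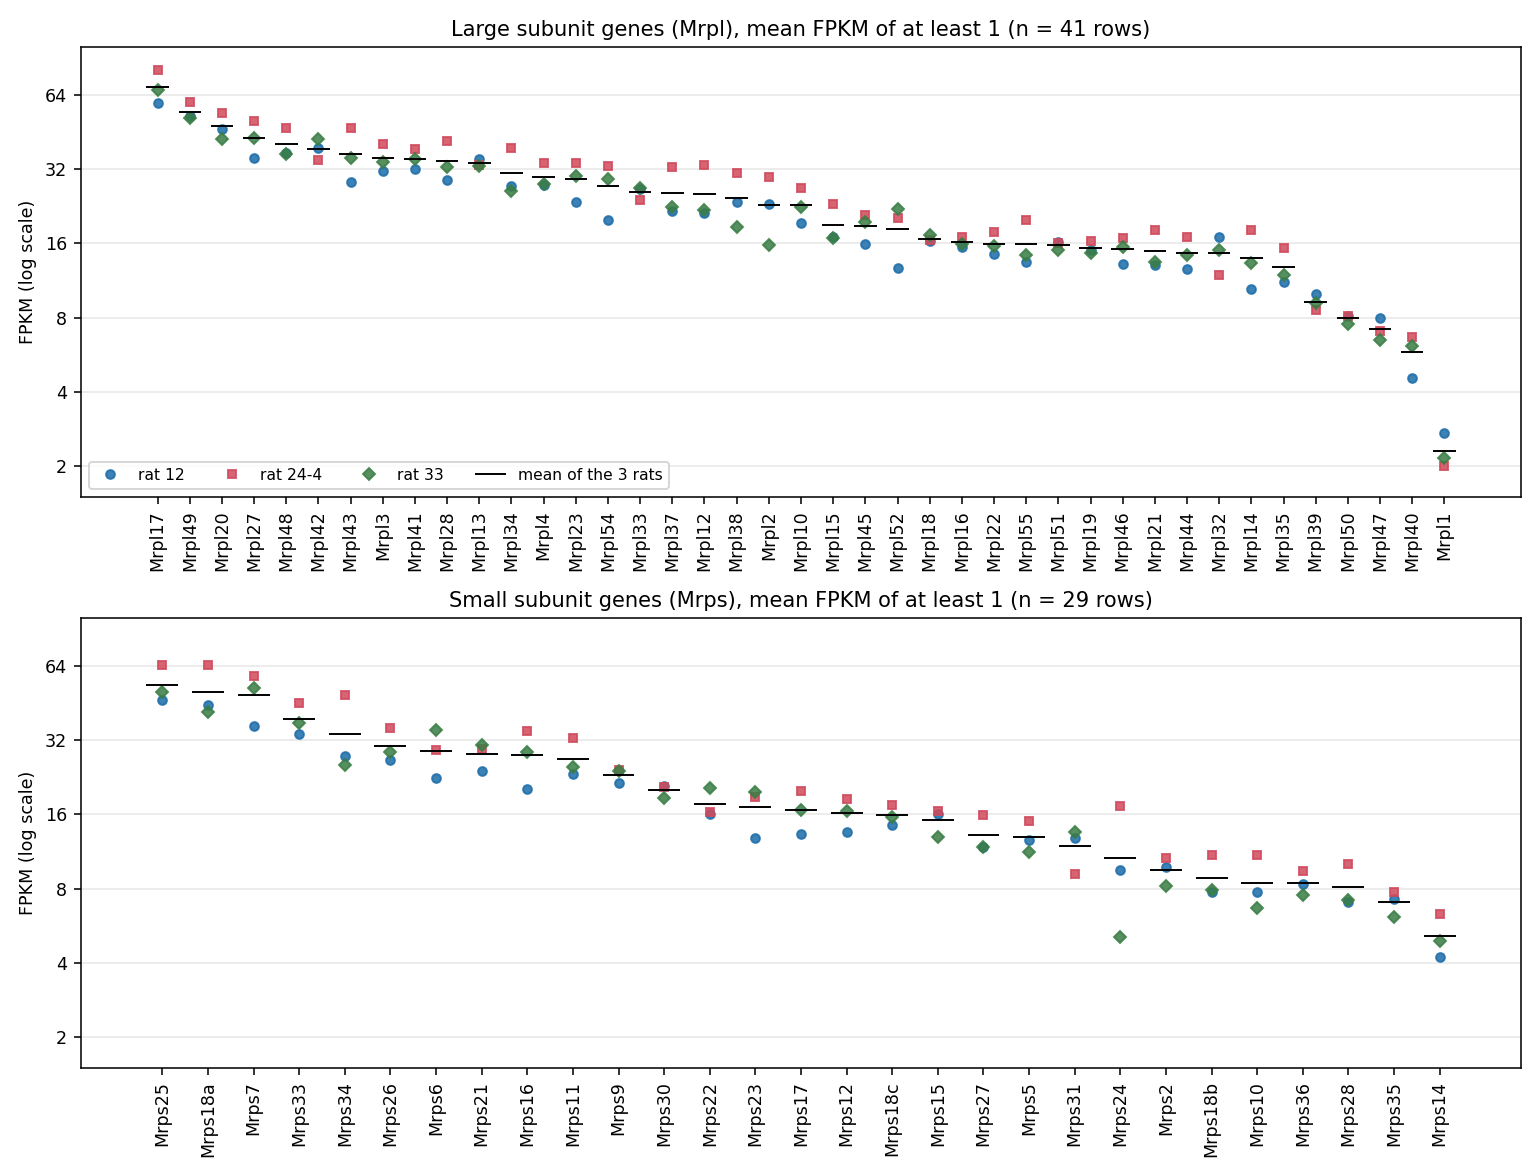
FPKM of each mitochondrial ribosomal protein gene in each rat, on a log scale, for the 41 large subunit (upper panel) and 29 small subunit entries (lower panel) with a mean of at least 1, in order of their mean (black bar). Most genes lie between 10 and 40 FPKM, Mrpl1 stands alone at 2.30, and the red squares of rat 24-4 are the highest symbol for 53 of the 70.

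Among the large subunit genes, the 5 highest were Mrpl17, Mrpl49, Mrpl20, Mrpl27 and Mrpl48. Mrpl17, the counterpart of bacterial L17, had 59.4, 81.1 and 66.9 FPKM in rats 12, 24-4 and 33, a mean of 69.1 ± 11.03 (SD, n = 3 rats, here and below). Its locus lies on chromosome 1 from 170652294 to 170653920, on the minus strand of Rnor_6.0, the build of the deposited files, and RefSeq lists 2 pseudogenes of it. Mrpl49, a protein found only in mitochondria, had 52.7, 59.9 and 51.6 FPKM in rats 12, 24-4 and 33. Mrpl20, whose bacterial counterpart binds the large subunit RNA early in assembly, had 46.6, 54.1 and 42.6 FPKM. These genes shared an order in which rat 24-4 was highest, and in Mrpl49 and Mrpl20 rats 12 and 33 were close together. Mrpl27, whose bacterial counterpart reaches toward the peptidyl transferase centre, had 35.5, 50.3 and 42.8 FPKM, and Mrpl48, a mitochondria-specific protein of the central protuberance, had 37.3, 47.3 and 37.1. The 5 highest held 25.4% of the summed FPKM of the 41 tested large subunit genes.

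In the stalk, where translation factors bind, Mrpl12 had 21.2, 33.2 and 22.0 FPKM in rats 12, 24-4 and 33, and Mrpl10, which anchors it, had 19.4, 26.9 and 22.4. Mrpl12 was thus higher in rat 24-4 than in the other 2 rats, which were alike. At the exit of the peptide tunnel, Mrpl23 had 23.5, 34.0 and 30.0 FPKM and Mrpl45, which tethers the ribosome to the inner membrane, had 15.9, 20.9 and 19.6. In the central protuberance, which bridges to the small subunit, Mrpl38 had 23.6, 30.9 and 18.7 FPKM, Mrpl46 had 13.2, 16.8 and 15.5, and Mrpl18 had 16.3, 16.6 and 17.4. Mrpl18, whose bacterial counterpart binds 5S RNA, had the smallest spread of all members, with an SD over the rats of 0.05 on the log2(FPKM + 1) scale. Mrpl3 and Mrpl44, in which inherited variants cause mitochondrial disease with cardiomyopathy in humans, had means of 35.4 ± 4.54 and 14.7 ± 2.25 FPKM. Mrpl51, a mitochondria-specific protein, was about as even as Mrpl18, at 16.2, 16.04 and 15.1 FPKM in rats 12, 24-4 and 33. The genes with the largest spread among the large subunit were Mrpl2 and Mrpl52. Mrpl2, whose bacterial counterpart lies at the peptidyl transferase centre, had 23.2, 29.9 and 15.8 FPKM, lowest in rat 33. Mrpl52, a mitochondria-specific protein, had 12.7, 20.3 and 22.1 FPKM, lowest in rat 12.

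The lowest large subunit genes above the minimum were Mrpl1, Mrpl40 and Mrpl47. Mrpl1, the protein of the L1 stalk, through which spent transfer RNA leaves, had 2.73, 2.01 and 2.16 FPKM in rats 12, 24-4 and 33 and was the lowest tested member. A second entry described as Mrpl1-like, LOC100359687, had 6.41, 4.31 and 6.13 FPKM, and fragments of near-identical copies can be divided between entries, so the level of Mrpl1 is uncertain. Mrpl40, a protein of the central protuberance, had 4.56, 6.69 and 6.14 FPKM, and Mrpl47, the counterpart of bacterial L29, which overlaps Actl6a on the opposite strand, had 7.94, 7.04 and 6.51. RefSeq lists 2 pseudogenes of each of these 3 genes. Across the tested large subunit genes, the mean level ran from 2.30 to 69.1 FPKM, a 30.1-fold range. Its lower end is the uncertain value of Mrpl1, and the next lowest mean was 5.79 FPKM, for Mrpl40.

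Among the small subunit genes, the 5 highest were Mrps25, Mrps18a, Mrps7, Mrps33 and Mrps34. Mrps25, a mitochondria-specific protein, had 46.7, 64.5 and 50.1 FPKM in rats 12, 24-4 and 33, a mean of 53.8 ± 9.41. It lies on chromosome 4 from 124036655 to 124048417, on the minus strand of Rnor_6.0. Mrps18a had 44.6, 64.4 and 41.5 FPKM. Despite its symbol, the Mrps18a protein sits in the large subunit, as does that of Mrps30, and the rule by name counts both as small. Mrps7, whose bacterial counterpart organises the head of the small subunit, had 36.6, 58.5 and 52.1 FPKM, lowest in rat 12. Mrps33 and Mrps34, both mitochondria-specific, had means of 38.9 ± 5.80 and 34.0 ± 12.97 FPKM. Mrps34 was high in 1 rat only, with 48.9 FPKM in rat 24-4 and 27.6 and 25.5 in rats 12 and 33. The 5 highest held 36.8% of the summed FPKM of the 29 tested small subunit genes, a share not comparable with that of the larger set of large subunit genes.

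Mrps12, whose bacterial counterpart lies at the decoding centre, had 13.6, 18.5 and 16.4 FPKM in rats 12, 24-4 and 33. The 3 paralogs related to bacterial S18 differed in level: Mrps18a averaged 50.2 ± 12.4 FPKM, Mrps18c 15.8 ± 1.51 and Mrps18b 8.85 ± 1.78, and the lowest single value of Mrps18a, 41.5, was above every value of the other 2. Mrps16 and Mrps22, in which inherited variants cause mitochondrial disease in humans, averaged 28.0 ± 7.40 and 17.6 ± 2.42 FPKM. The most even small subunit genes were Mrps30, at 20.9, 20.6 and 18.7 FPKM, and Mrps9, the counterpart of bacterial S9, at 21.4, 24.3 and 24.0 FPKM. The lowest were Mrps14, the counterpart of bacterial S14, at 4.21, 6.33 and 4.90 FPKM, Mrps35 at 7.27, 7.74 and 6.14, and Mrps28 at 7.05, 10.1 and 7.22. Across the tested small subunit genes, the mean ran from 5.15 to 53.8 FPKM, a 10.4-fold range.

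The remaining 6 entries fell below the minimum. The entries listed at 0 in every rat were all of the large subunit: Mrpl30 on chromosome 9, both entries of Mrpl36 on chromosome 1 and both entries of Mrpl53 on chromosome 4. That was 5 of 76 members, or 6.58%, against 38.7% of all entries. Since genes that every cell uses can be listed at 0 in these files, a 0 may be a failed estimate, and no level is drawn from it. Mrpl36 and Mrpl53 had no other entry with a value, so no level was obtained for these symbols or for Mrpl30. Mrps36 had an entry on chromosome 2 with 8.36, 9.39 and 7.53 FPKM and one on chromosome 9 with 0.414, 0.368 and 0.731. RefSeq now names Mrps36 Kgd4, a component of the 2-oxoglutarate dehydrogenase complex, and comparisons of the subunits are also given without it. Several ribosomal proteins fell outside the name rule through their spelling, among them mrpl9, the tunnel exit gene mrpl24 and the stalk gene mrpl11 in lower case, at 19.7 ± 5.55, 16.5 ± 0.76 and 19.4 ± 2.82 FPKM.

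Among tested genes, those of the large subunit had a higher typical level than those of the small subunit in each of the 3 rats. The 5 entries listed at 0, all of the large subunit, are not among the tested genes. The median of the tested large subunit genes was 19.4, 24.1 and 19.6 FPKM in rats 12, 24-4 and 33, against 14.5, 18.5 and 16.6 for small subunit genes. On the log2(FPKM + 1) scale the large subunit minus the small subunit gave 0.40, 0.36 and 0.23 in the same rats, a mean of 0.33 ± 0.09. The levels of both sets overlapped over most of their range, as the plot of each gene by rat shows. The difference in medians was 0.27 when Mrps36 was left out with 1 entry kept per symbol, and 0.40 when Mrps18a and Mrps30 were counted with the large subunit. No test was made, since genes are not replicates and an exact two-sided sign-flip test over 3 rats cannot go below p = 0.25.

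Over all tested entries, which subunit had the more even levels depended on the measure. The interquartile range of log2(FPKM + 1) among large subunit genes was 1.05, 1.01 and 1.11 in rats 12, 24-4 and 33, and among small subunit genes it was 1.17, 1.49 and 1.68. The difference averaged -0.39 ± 0.24, so the middle portion of the large subunit was narrower in each rat. It shrank to -0.13 when Mrps36 was left out with 1 entry kept per symbol, and rat 12 then had a value of 0.05, of the opposite sign. Of the tested entries, this removed only that of Mrps36, so the size of the difference rested in large part on 1 entry. The SD among members did not separate the 2, at 0.88 ± 0.05 for the large and 0.88 ± 0.07 for the small subunit. An SD is sensitive to single low entries, and that of the large subunit includes Mrpl1, whose level is uncertain. It was not recomputed without Mrpl1, so equal evenness is not established. Both were narrower in interquartile range than genes at large and than cytosolic ribosomal genes, with averages over the rats of 1.06 for the large and 1.45 for the small subunit, against 3.87 for 77 tested cytosolic ribosomal entries and 2.30 for all tested genes. For 74 nuclear genes of the respiratory chain it was 1.41, above the large and below the small subunit. Cytosolic ribosomal genes have many processed copies, so the low entries of that set are uncertain.

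Levels were also set apart by whether a protein was grouped as having a bacterial counterpart or as mitochondria-specific. The grouping followed the naming of ribosomal proteins and was not checked against protein sequences. In the large subunit, the median over the 25 tested genes with a bacterial counterpart averaged 20.3 ± 3.42 FPKM over the rats, against 21.6 ± 3.98 for the 16 mitochondria-specific genes. In the small subunit, it averaged 16.02 ± 1.98 FPKM for 16 genes with a bacterial counterpart, against 18.2 ± 1.89 for 13 mitochondria-specific genes. Within rats 12, 24-4 and 33, the large subunit had 19.4, 24.1 and 17.4 FPKM for genes with a bacterial counterpart against 18.04, 25.9 and 20.9 for mitochondria-specific genes, so that the order was not the same in every rat. The small subunit, by name, had 14.04, 18.01 and 16.01 FPKM against 16.1, 18.9 and 19.7, lower for genes with a bacterial counterpart in each rat. The 13 mitochondria-specific genes by name include Mrps18a and Mrps30, whose proteins sit in the large subunit, and Mrps36. They also include Mrps18b, which like Mrps18a is related to bacterial S18, so the grouping is not strictly one by descent. The order was not recomputed without these genes, so it is not established for proteins of the small subunit alone or for descent. No test was made of these medians. The highest gene of the large subunit, Mrpl17, has a bacterial counterpart and the highest of the small subunit, Mrps25, has none.

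No member was called as more variable between rats than genes of its level. The limma variability test called 0 of the 70 tested members at an adjusted p under 0.05 (Benjamini-Hochberg over all 13754 genes), with 14 genes or 0.102% called in all. The count over all genes was 101 without rat 12, 0 without rat 24-4 and 66 without rat 33, and in each case 0 members were called. At an unadjusted p under 0.05 it picked 1 member, Mrps24, or 1.43% of the members, against 5.96% of all tested genes. On simulated data the test recovered 0% of 4-fold and 94% of 16-fold differences of 1 rat, so it cannot show that smaller differences are absent. Mrps24, the counterpart of bacterial S3, had 9.53, 17.3 and 5.11 FPKM in rats 12, 24-4 and 33, and none of its values was near another. Its highest value was 3.40 times its lowest, and its adjusted p in limma was 0.805. It lies on chromosome 14 from 85947765 to 85951899, on the minus strand of Rnor_6.0. For the other 69 tested members the highest rat was less than 2 times the lowest, which held for 70% of all tested genes.

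With all 3 rats, members differed less between rats than genes at large did, but this order rested on rat 33. The median SD over the rats of log2(FPKM + 1) was 0.21 for large and 0.24 for small subunit genes, against 0.32 for all tested genes, 0.26 for nuclear respiratory chain genes and 0.37 for cytosolic ribosomal entries. The large minus the small subunit gave -0.034 with all rats and -0.055 without rat 12. Over all members the median SD was 0.22 with all rats, 0.19 without rat 12 and 0.10 without rat 24-4, below all tested genes each time (0.32, 0.29 and 0.25). Without rat 33 it was 0.29 for members, against 0.26 for all tested genes, which reverses the order. For 62 of the 70 members the variance was below that fitted for genes of their level, which held for 59.9% of all tested genes. Leaving out 1 rat gave 58 to 63 members, against 60.04% to 69.7% of all tested genes. The median ratio of variance to fitted variance was 0.39 for members and 0.74 for all tested genes. It was 0.22 against 0.45 without rat 12 and 0.12 against 0.60 without rat 24-4, but 0.58 against 0.46 without rat 33, where the median of members was the higher. Mrpl18, Mrpl51 and Mrpl13 were at the low end, with SDs of 0.05, and Mrps24 (0.79), Mrps34 (0.50) and Mrpl2 (0.44) were at the high end.

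**Figure D2:**
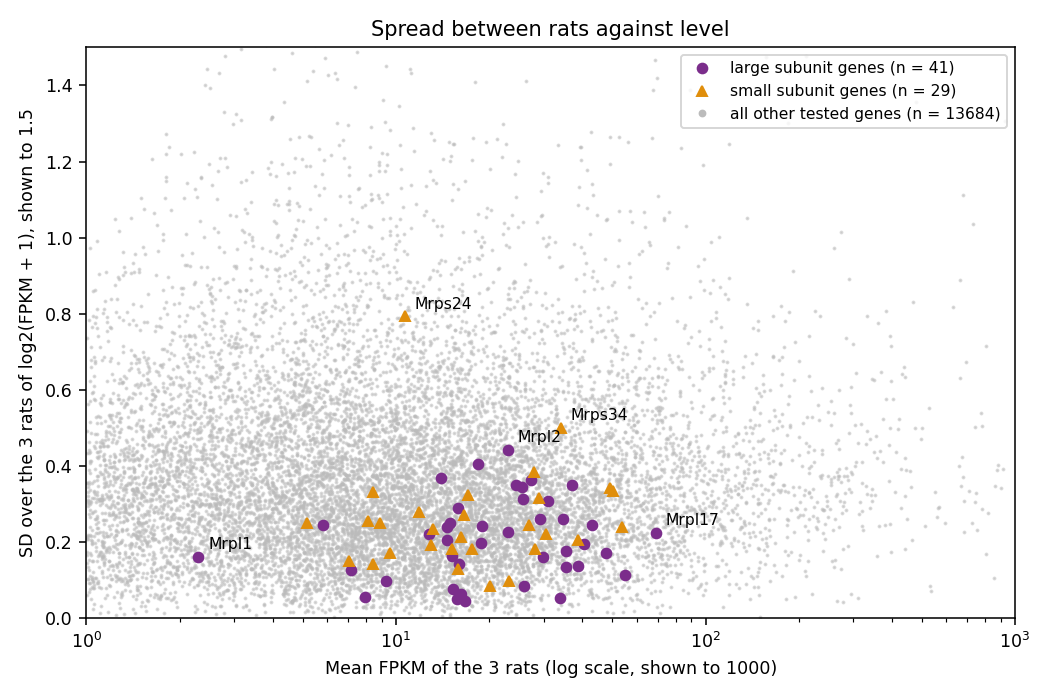
SD over the 3 rats of log2(FPKM + 1), vertical axis, against mean FPKM on a log scale, for large subunit genes (circles), small subunit genes (triangles) and all other tested genes (grey). Members have medians of 0.21 and 0.24 against 0.32 for all tested genes, an order that reverses without rat 33 (0.29 for members and 0.26 for all tested genes), and Mrps24 stands above the other members at 0.79.

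Of the 70 tested members, 53 were highest in rat 24-4, where 34.2% of all tested genes were highest. These were 30 of 41 large and 23 of 29 small subunit genes. Another 8 members were highest in rat 12 and 9 in rat 33, where 23.8% and 42% of all tested genes were highest. The lowest rat was rat 12 for 42 members, rat 33 for 22 and rat 24-4 for 6, against 37.9%, 28.9% and 33.3% of all tested genes. The median deviation of members from the mean of the rats, on the log2(FPKM + 1) scale, was -0.14 in rat 12, 0.20 in rat 24-4 and -0.05 in rat 33. Over all tested genes it was -0.06, 0.01 and 0.07. Both subunits had like deviations, with medians of -0.13, 0.19 and -0.04 for the large and -0.16, 0.22 and -0.09 for the small subunit.

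Rat 24-4 was also the library in which the mitochondrial genome took the smallest share of FPKM, and leaving that genome out changed part of this order. With it left out and the rest rescaled, 45 members were highest in rat 24-4, against 26.7% of all tested genes. Only 22 were then lowest in rat 12, against 27.1% of all tested genes, so the low position of rat 12 was not kept. That scaling moved the median deviation of all tested genes in rat 12 to 0.05, where it was -0.06 as deposited. Relative to all tested genes, the members' deviation was -0.08, 0.19 and -0.12 as deposited in rats 12, 24-4 and 33. With the mitochondrial genome left out it was -0.08, 0.20 and -0.13. Rescaling a library shifts members and other genes by nearly the same amount on the log scale. The likeness under both scalings therefore follows from the method and does not show that the members' order is independent of the mitochondrial genome.

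Other gene sets also deviated between these libraries. Nuclear respiratory chain genes had median deviations of -0.17, 0.28 and -0.09 in rats 12, 24-4 and 33, and 67 of 74 were highest in rat 24-4. Cytosolic ribosomal entries had -0.41, 0.29 and 0.15, with 53 of 77 highest in rat 24-4. The 13 protein genes of the mitochondrial genome, whose messages the mitochondrial ribosome translates, had 0.47, -0.60 and 0.14, and 12 of them were lowest in rat 24-4. Markers of cell types also deviated. Neuronal markers had medians of 0.53, 0.01 and -0.39 in rats 12, 24-4 and 33 and 5 of the 6 were highest in rat 12. Astrocyte markers had -0.55, 0.14 and 0.58, oligodendrocyte markers -0.52, -0.06 and 0.59 and microglial markers -0.71, 0.03 and 0.72. The 6 choroid plexus markers had 0.60, -3.17 and 2.58. The FPKM of each of them was above 0 in every rat and lowest in rat 24-4, and the limma test called 4 of them. The 5 red blood cell genes summed to 559, 84.4 and 391 FPKM in rats 12, 24-4 and 33. The 3 of them that were tested, all with an unadjusted p under 0.05 and none called, had a median deviation of 1.07, -1.64 and 0.50, lowest in rat 24-4 like choroid plexus. Endothelial markers had -0.21, -0.18 and 0.31. The part of cell makeup, choroid plexus tissue, blood and library composition in the members' order was not tested.

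**Figure D3:**
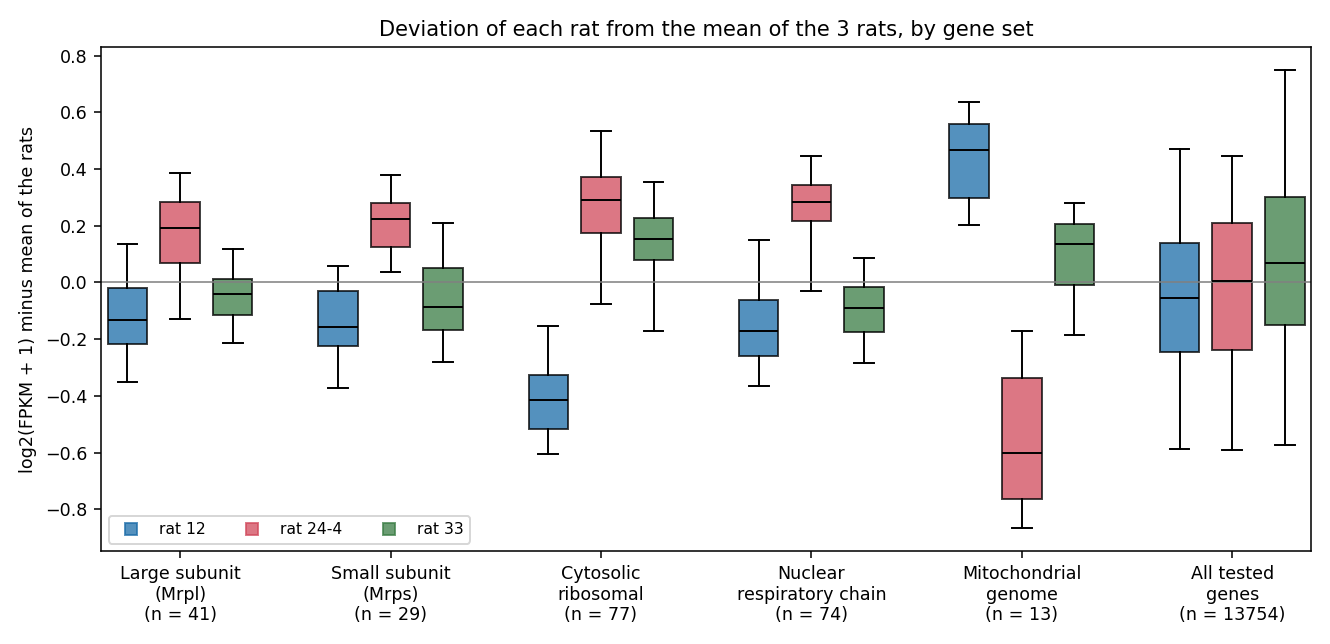
Deviation of each rat from the mean of the 3 rats in log2(FPKM + 1), for 6 gene sets; boxes span the quartiles, the line is the median and whiskers run from the 5th to the 95th percentile of genes. Both subunits are highest in rat 24-4 (medians 0.19 and 0.22), as are cytosolic ribosomal and nuclear respiratory chain genes, while protein genes of the mitochondrial genome are lowest there (-0.60).

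The members were spread over 18 chromosomes, with 13 entries on chromosome 1 and 11 on chromosome 10. Of the 70 tested members, 16 had a gene on the opposite strand that began within 1000 bp of their own start, in a head-to-head arrangement. That was 22.9%, 10 large and 6 small, against 8.86% of all tested genes. One such pair joins the 2 subunits, since Mrpl46 and Mrps11 start 72 bp apart on chromosome 1. Mrps11, the counterpart of bacterial S11, had 23.4, 32.6 and 24.9 FPKM in rats 12, 24-4 and 33, above Mrpl46 in each rat, at 13.2, 16.8 and 15.5. Some other partners also serve mitochondria. Mrps12 starts 16 bp from Sars2, the mitochondrial seryl-tRNA synthetase, at 5.67, 6.66 and 4.51 FPKM. Mrpl47 starts 266 bp from Ndufb5, a subunit of respiratory complex I, and the 2 differ in level, with Mrpl47 at 7.16 ± 0.72 and Ndufb5 at 53.9 ± 8.67 FPKM. Mrps27, an RNA-binding protein of the PPR family, starts 67 bp from Ptcd2, another PPR protein, at 13.1 ± 2.38 and 6.62 ± 0.31 FPKM. Mrpl32 starts 192 bp from the proteasome gene Psma2, which was the highest partner at 75.4 ± 8.03 FPKM. Of the others, Mrpl18 and the chaperonin gene Tcp1 had similar levels, at 16.8 ± 0.56 and 23.7 ± 0.76 FPKM, while Mrps34 and Eme2, 71 bp apart, were farthest apart in rat 24-4, where Mrps34 had 48.9 and Eme2 21.4.

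**Figure D4:**
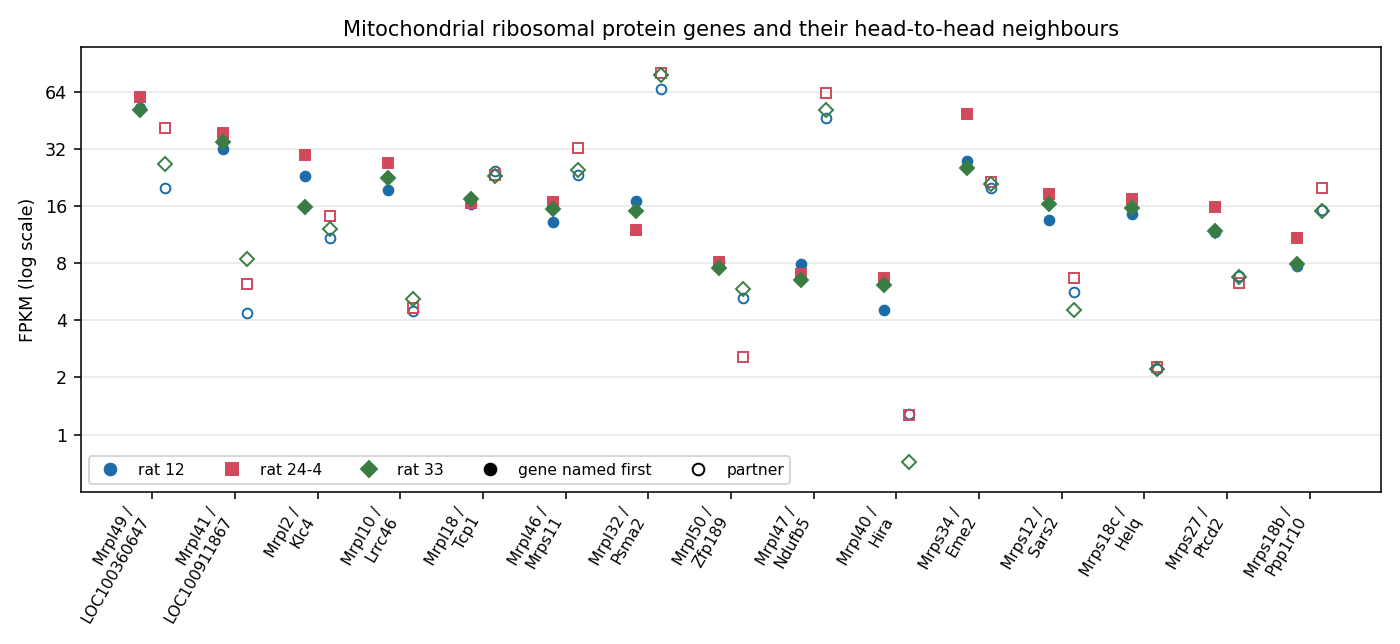
FPKM on a log scale of the members with a head-to-head neighbour within 1000 bp (filled symbols) and of that neighbour (open symbols), in each rat. Filled symbols lie above open ones in most of the 15 pairs, by far in Mrpl40 with Hira and Mrps18c with Helq. Open symbols lie far above in Mrpl32 with Psma2 and Mrpl47 with Ndufb5. They also lie above in Mrpl18 with Tcp1, Mrpl46 with Mrps11 and Mrps18b with Ppp1r10.

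A gene on the opposite strand overlapped 10 of the 70 tested members, or 14.3%, against 19.1% of all tested genes with any overlapping gene. Whether counting used the strand is not given in the sources used here, so fragments of such genes may be shared. Among the named members this touches Mrpl47, one of the lowest large subunit genes, at 7.16 FPKM on average against 5.56 for Actl6a, a subunit of chromatin remodelling complexes. Other named members with such a partner were Mrpl49, which overlaps the ubiquitin ligase gene Syvn1 (15.8 FPKM on average), Mrps7, which overlaps the Golgi adaptor gene Gga3 (16.2 FPKM), Mrps18a, which overlaps the cilia gene Rsph9, and Mrpl13, which overlaps Mtbp (0.40 FPKM). The antisense partners of Mrps9 and Mrps28, SNORA17 and LOC499573, were listed at 0 in all rats. Rsph9 had 4.68, 6.31 and 16.4 FPKM in rats 12, 24-4 and 33, highest in rat 33, where Mrps18a was lowest. Of the tested members, 22 have at least 1 pseudogene in RefSeq, and fragments can be divided between a gene and its copies. Their median level averaged 18.6 ± 2.93 FPKM, as against 18.5 ± 2.04 FPKM for the 48 members without one.

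YY1 is a zinc finger factor that binds close to the start of many genes. The YY1 core, AAGATGGC on either strand, was in 25% of the 60 member promoters, 21.6% of 37 large and 30.4% of 23 small. It was in 18.8% of nuclear respiratory chain promoters, 7.14% of cytosolic ribosomal promoters, 5.02% of 10641 promoters of tested genes and 3.17% of all 33469 promoters of this length. Of the 15 matches, 13 read forward and 11 began after the annotated start, with a median position of 17. Of all promoters with this core, 41.4% had their first match after the start.

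The core of the ETS motif, CCGGAAG, bound by factors such as GABP, was in 31.7% of member promoters, 29.7% of large and 34.8% of small. In cytosolic ribosomal promoters it was in 33.9%, in nuclear respiratory chain promoters in 33.3%, in those of tested genes in 15.7% and in all in 8.75%. The NRF1 motif, read as GCGC, any base and TGCGC, was in 13.3% of member promoters, 16.2% of large and 8.70% of small, against 9.23% for tested genes and 4.25% for all. At least 1 of these 3 was in 32 of the 60 member promoters, or 53.3%, against 26.3% for tested genes. No match of one motif overlapped a match of another, and 6 genes held both the YY1 and the ETS core. Among the members shown for their YY1 core, Mrps18a and Mrpl48 are such genes. The CCAAT box, by its letters CCAAT, differed little, at 43.3% of member promoters against 36.6% for tested genes and 37.5% for all. TATAAA was in 13.3% of member promoters, against 6.71% for tested genes but 14.2% for all. A match is a description of letters and not of a bound factor.

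**Figure D5:**
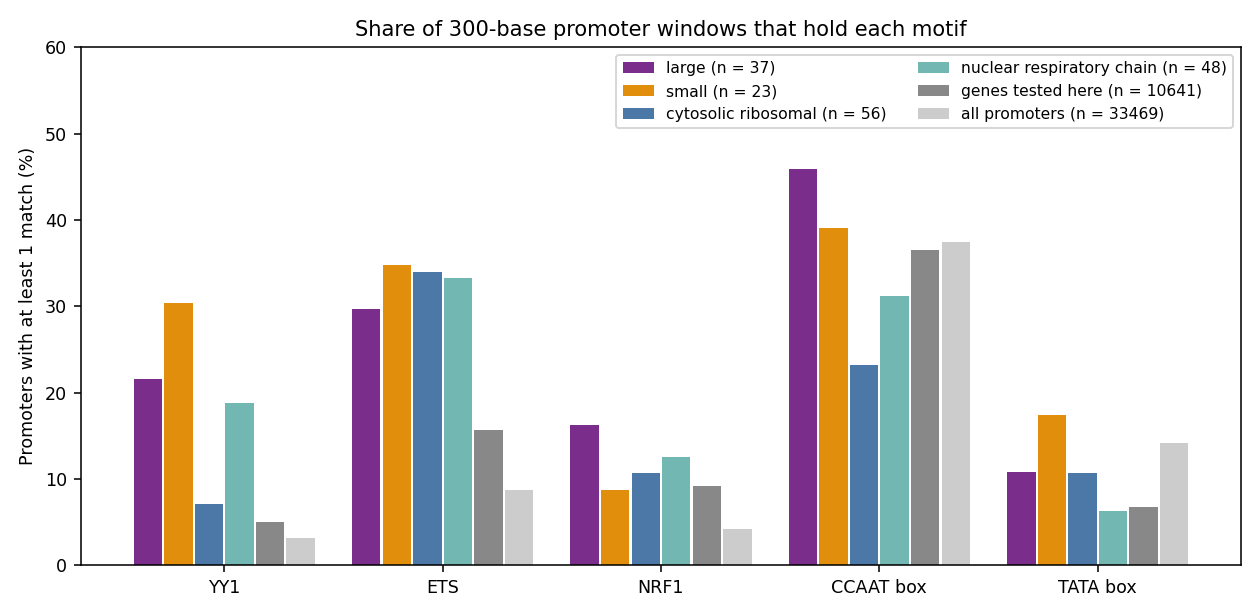
Share of 300-base promoter windows with at least 1 match to each of 5 motifs on either strand, for large and small subunit genes, 2 comparison sets, tested genes and all promoters in the table. The YY1 core is in 21.6% of large and 30.4% of small subunit promoters against 5.02% for tested genes, and the ETS core is about as frequent in members (29.7% and 34.8%) as in the other 2 gene sets.

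The median level was higher with the ETS core than without it, and nearly equal with and without the YY1 core. Only tested members with a promoter window were compared, so members without one are in neither group. Members with the YY1 core had a median of 22.3 ± 2.34 FPKM (14 tested members, SD over rats) and those without it 21.8 ± 2.33 (41 members). With the ETS core the median was 28.4 ± 3.17 FPKM (16 members), against 18.7 ± 1.82 without (39 members), and in each rat the first was higher. With the NRF1 motif it was 16.3 ± 1.60 FPKM (7 members), although this set holds Mrpl17, the highest member, against 22.8 ± 2.54 without (48 members). These are descriptions of few genes, with no test.

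The other genes of mitochondrial translation were measured alongside. Ribosomal proteins with other names had levels like the members: Chchd1 had 28.7, 41.7 and 32.9 FPKM in rats 12, 24-4 and 33 and was the highest of 5 matched, and Ptcd3, a PPR protein of the small subunit, was the lowest at 13.2, 10.2 and 14.6. Of the 12 translation factors, all were tested and their median mean level was 6.95 FPKM, below the members. The highest was Tufm, the elongation factor that delivers transfer RNA, at 30.9, 44.3 and 35.2 FPKM, and the lowest was Guf1, a back-translocating factor, at 4.73, 2.97 and 4.25. Of 18 matched genes for ribosome assembly and RNA modification, 16 were tested, Ngrn was highest at 40.3 ± 4.59 FPKM and the lowest above 0 was Ybey, at 0.86 ± 0.12. Nsun4, which methylates the small subunit RNA, was listed at 0 in all rats.

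Mitochondrial aminoacyl-tRNA synthetases had low levels, from Ears2 at 2.38 ± 0.32 FPKM to Tars2 at 21.5 ± 3.27, apart from Kars and Gars, which also serve the cytosol and had 44.6 ± 3.95 and 53.2 ± 13.3. Mars2 was listed at 0. Among genes of mitochondrial transcription and RNA handling, Lrpprc, which stabilises mitochondrial messages, was highest at 26.0 ± 3.36 FPKM, and Tefm, an elongation factor, was lowest at 2.07 ± 0.20. In a mixed list of genes for membrane insertion and for respiratory complex IV, Coa3 was highest at 51.6 ± 13.9 FPKM and Mss51 lowest at 2.85 ± 0.55. Oxa1l, the insertase that binds the ribosome near Mrpl45, had 25.7, 36.1 and 29.8 FPKM in rats 12, 24-4 and 33. Among regulators of mitochondrial biogenesis, Esrra was highest at 18.5 ± 4.01 FPKM and Ppargc1b lowest at 2.33 ± 0.60. The factors of the 3 promoter motifs were themselves expressed, with Yy1 at 16.9, 12.98 and 17.9 FPKM, Gabpa at 5.62, 2.56 and 7.01 and Nrf1 at 4.52, 5.15 and 5.64. Yy1 and Gabpa were lowest in rat 24-4, as were 33.3% of all tested genes, and Nrf1 was lowest in rat 12. A link between these factors and the members' levels was not tested. Of the genes tested in these 7 lists, the limma test called 0, and 0 had an unadjusted p under 0.05, against 0.102% and 5.96% of all tested genes.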

How the data were processed

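Messenger RNA of motor cortex from 3 rats of 1 group was measured. Per the series' design text and the file headers, the deposited values are FPKM, which the authors computed after counting fragments per gene and normalizing. The submitters' processing notes name HISAT2 2.0.4, StringTie 1.3.0 and Rnor_6.0. How counts were normalized, and whether strand was used, is not given in the sources used here.

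The scale was log2(FPKM + 1), on which low genes differ less than in FPKM, and genes with a mean below 1 FPKM were left out, which left 13754. limma 3.58.1 (R 4.3.3) fitted an intercept to each gene with a trended, robust prior. The residual variance over the prior variance was compared with the F distribution, one-sided, with Benjamini-Hochberg adjustment over all tested genes and a threshold of 0.05. On simulated data for the same 13754 genes, with 50 genes seeded at each fold of 1 rat, the test recovered 0% of 4-fold, 94% of 16-fold and 100% of 64-fold and 256-fold genes and made 5 false calls. Depth came from short loci (400 bp or less), where low FPKM step by the worth of 1 fragment. With a tolerance of 0.02, 93.3%, 93.1% and 93.4% of values came out whole in rats 12, 24-4 and 33, and it is unknown whether these depths are raw or normalized.

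RefSeq on GRCr8 gave promoters, pseudogenes and names only. Loci, overlaps and neighbours are on Rnor_6.0. Members were named by a fixed rule: in each subunit the 5 highest and 3 lowest, the 2 largest and 2 smallest SDs, unadjusted p under 0.05, known roles, and entries at 0. Of each pathway list the highest and lowest gene are named. Mrpl13, Mrpl32, Mrps6, Mrps11 and other genes named for a promoter or neighbour were chosen after their values were seen. The members and lists were chosen with earlier results of these data known. Alternatives were another pseudocount (0.1), other filters, 2 scalings, other priors, each rat left out, and other groupings of members. Adding the entries with lower-case names, leaving out Mrpl1, recounting the highest and lowest rats under each scaling, and the spread of members beside all tested genes under each setting were chosen after seeing the data. Python 3.11.15, numpy 2.4.6, pandas 2.3.3, scipy 1.17.1 and matplotlib 3.10.9 were used.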

Additional observations from a re-analysis of the deposited data

How the results depend on the processing

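The number of genes variable between rats depended on the settings: 14 were called as reported, 23 with a pseudocount of 0.1 and 9 with a prior without trend. No gene was called with the mitochondrial genome left out, with upper quartile scaling, with a minimum of 0.1 FPKM, with no filter or with a prior that was not robust, where 680, 742, 903, 864 and 733 genes had an unadjusted p under 0.05. Leaving out 1 rat gave 0 to 101 calls, with 101 without rat 12, 0 without rat 24-4 (631 at an unadjusted p under 0.05) and 66 without rat 33. No member was called under any of these 10 settings, where the smallest adjusted p of a member ranged from 0.431 to 0.986, and 0 or 1 member had an unadjusted p under 0.05.

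The level of large minus small subunit genes kept its sign in all 12 alternatives, from 0.23 with means over members in place of medians to 0.40. Several of these could hardly change the sign. The 5 large subunit entries listed at 0 were left out in every setting, also with no filter. No comparison of the subunits shows what their true levels would change. Scaling a whole library leaves a difference within a rat almost untouched, and the difference was above 0 in every rat before any was left out. Without 1 rat it ran from 0.29 to 0.38. The difference of interquartile ranges ran from -0.53 to -0.30 without 1 rat and was -0.39 without Mrpl1. With Mrps36 left out and 1 entry per symbol it was -0.13. The only tested entry that this setting removed was that of Mrps36 on chromosome 2, at 8.42 FPKM on average. The difference in SD between rats was -0.055 without rat 12, and without 1 rat it ran from -0.055 to -0.034. The median SD between rats of members minus that of all tested genes was -0.10 as reported and -0.15 to 0.034 without 1 rat, reversed at 0.034 without rat 33. The same difference for the ratio of variance to fitted variance was -0.35 as reported and -0.47 to 0.13, reversed at 0.13 without rat 33. Other settings kept both signs. The cause of the reversals was not tested. Members lowest in rat 12 numbered 42 of 70 as reported, 34 with upper quartile scaling and 22 with the mitochondrial genome left out. Those highest in rat 24-4 numbered 45 to 53 of 70 under these scalings, against 26.7% to 34.2% of all tested genes. With the lower-case names added they numbered 56 of 73. No paired analysis was possible because there is 1 group.

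With 3 rats, and control animals not analysed here, 4-fold differences of 1 rat are outside what the test called in simulated data. Levels of entries at 0, and of members with near-identical copies or antisense neighbours, are uncertain. At the members' median, counting error gives a gene of 1 kb a 95% Poisson interval of about 10.6% to 12.8% either side, depending on the rat.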

Other observations

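Of the entries outside the name rule that also belong to this ribosome or are described as like one of its members, Mrp63, a protein of the large subunit, had 5.50, 8.86 and 6.65 FPKM in rats 12, 24-4 and 33. RGD1560917, described as Mrpl41-like, had 4.98, 8.58 and 6.26 FPKM, and LOC690271 was listed at 0 in all rats. Gadd45gip1, a large subunit protein at the tunnel exit, had 16.2, 27.3 and 18.3 FPKM, highest in rat 24-4 as were 53 of the 70 tested members. Dap3, a small subunit protein that binds GTP, had 12.5, 16.1 and 16.8 FPKM, highest in rat 33. Ict1, a peptide release factor built into the large subunit, had 19.5, 27.9 and 28.3 FPKM, also highest in rat 33.

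Cmc1, a chaperone of respiratory complex IV, had 1.83, 6.34 and 2.27 FPKM in rats 12, 24-4 and 33 and so was high in rat 24-4 only. Its adjusted p in the limma variability test was 0.904, which misses the threshold.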
